A study of Drosophila melanogaster with 2 samples.

Results

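The adducin, spectrin and ankyrin genes of Drosophila melanogaster are described here through the places where a tagged transcription factor was found on them. They are 6 of the 13968 protein-coding genes on the main chromosome arms, namely hts, alpha-Spec, beta-Spec, kst, Ank and Ank2. They were listed by symbol as genes of the membrane skeleton, and the family was picked because hts has one of the strongest promoter peaks in these data. The genes were thus chosen by the signal of the hts promoter peak, which is given as a description with no test.

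The membrane skeleton is a protein mesh under the plasma membrane. Spectrin, which is built from heterodimers of an alpha and a beta chain, cross-links short actin filaments. Adducin caps those filaments and recruits spectrin to them, and ankyrin ties the mesh to membrane proteins such as adhesion molecules and ion pumps. In the fly, alpha-Spec encodes the alpha chain, beta-Spec the conventional beta chain and kst (karst) the heavy beta chain of the apical membrane. The gene hts (hu-li tai shao) encodes adducin, and products of the gene are also known in the ovary from ring canals and the fusome. Ank encodes the widely expressed ankyrin, and Ank2 encodes the ankyrin of axons and synapses.

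Whole embryos aged 8 to 24 h were studied by chromatin immunoprecipitation and sequencing (ChIP-seq). The strain carries a transgene for nerfin-2, a zinc finger protein, fused to enhanced green fluorescent protein (eGFP), and the precipitation used an antibody to GFP. Sonicated chromatin in the size range 200 to 800 bp was used for 2 samples, biological replicates 1 and 2, which form 1 group. All samples carry the fusion, and the labels also name a control experiment, which was not analysed here. A peak is an average over all tissues of the embryo, so binding in few cells and weak binding in many cannot be told apart. The files hold peak lists and no read numbers, so the depth behind each value is unknown.

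Peaks were ranked by the irreproducible discovery rate (IDR), which is low where a peak keeps its rank when called from separate data. The conservative list, made from both replicates together, held 2796 peaks that passed the authors' threshold, and a second list made from both replicates held 3369. The thresholded lists of the single replicates held 2555 peaks in replicate 1 and 1758 in replicate 2. Behind each thresholded list stands a relaxed ranked list of 130121 to 156540 calls, most of which did not pass. Ranked calls that scored as high as the lowest thresholded peak and were still missing from the thresholded list numbered 70 to 116, and 0 of the 6 members had one at a TSS or inside the gene. The signal of a peak is the peak caller's own measure of its strength, with no unit given in the sources used here, and its median over the conservative list was 121. Signals were not rescaled between lists, so their order within a list is easier to read than differences between lists. The score is a whole number of at most 1000 that rises as the IDR falls.

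The authors' build is dm6, which is Release 6 of the genome, and starts were read at each annotated transcription start site (TSS). On 3L, alpha-Spec lies at chr3L:1778485-1795328 on the minus strand with 1 distinct TSS, kst at chr3L:3336860-3368133 on the plus strand with 3 and Ank2 at chr3L:7655389-7718395 on the minus strand with 4. On X, beta-Spec lies at chrX:17657372-17669371 on the plus strand with 1 TSS. On chromosome 4, Ank lies at chr4:115074-129849 on the minus strand with 3. All 6 are long genes, between 12000 bp for beta-Spec and 63.0 kb for Ank2, against a median of 2.16 kb for all protein-coding genes.

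The stretches just upstream of 5 member TSSs are shown because they show which of these promoters, with and without a peak, hold the motifs described further on. They are read 5′ to 3′ on the strand of the gene, up to the base before the TSS, from the RefSeq copy of the Release 6 assembly. Capitals mark ATCGAT, the core of the DNA replication-related element (DRE), and GGTCACAC, the motif of motif 1 binding protein (M1BP), on either strand. For alpha-Spec the stretch is chr3L:1795329-1795391, the whole gap to the TSS of its divergent neighbour. The other stretches are chr3L:3336750-3336859 for kst, chrX:17657262-17657371 for beta-Spec, chr3L:7716325-7716434 for the Ank2 TSS with the strongest call, and chr4:129850-129959 for Ank.
alpha-Spec: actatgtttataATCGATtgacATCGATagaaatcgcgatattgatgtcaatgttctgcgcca
kst: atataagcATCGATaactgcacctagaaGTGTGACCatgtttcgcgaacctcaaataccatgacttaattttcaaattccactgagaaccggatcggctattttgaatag
beta-Spec: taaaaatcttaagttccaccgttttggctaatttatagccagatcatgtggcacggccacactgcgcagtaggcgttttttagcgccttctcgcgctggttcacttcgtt
Ank2: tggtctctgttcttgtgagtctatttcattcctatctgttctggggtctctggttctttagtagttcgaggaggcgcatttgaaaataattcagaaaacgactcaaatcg
Ank: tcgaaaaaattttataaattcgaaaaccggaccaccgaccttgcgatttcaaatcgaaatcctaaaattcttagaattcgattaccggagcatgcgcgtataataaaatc
The alpha-Spec stretch holds the DRE core at 2 places, the kst stretch holds 1 DRE core and 1 M1BP motif, and the stretches of beta-Spec, Ank2 and Ank hold neither.

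A promoter peak was a peak whose summit lay within 500 bp of any TSS of a gene. Of the 6 members, hts and alpha-Spec had one and beta-Spec, kst, Ank and Ank2 did not. In the conservative list this was 2 of 6 members, beside 19.4% of all protein-coding genes (2709 of 13968). The same 2 members had a promoter peak in each of the other thresholded lists, beside 21.4% of all genes in the second list, 18.0% in replicate 1 and 13.6% in replicate 2. With 6 members, 1 of them chosen for its peak, the count was read as a description and not as an excess over those shares. Long genes did not stand far from the rest, since 21.8% of the 1671 genes of at least 12000 bp had a promoter peak.

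The hts gene lies at chr2R:19397032-19424903 on the minus strand, with 16 annotated transcripts from 4 distinct TSSs. Its promoter peak was among the highest of the data set in both replicates. Its signal was 468 in replicate 1 and 284 in replicate 2, a mean of 376 ± 130 (SD, n = 2), where it was the 7th strongest peak in the thresholded list of replicate 1 and the 11th in that of replicate 2. In the conservative list it had a signal of 773, the 8th of 2796 peaks and the 7th of the 2151 peaks at protein-coding promoters. That is 5.77 times the median of 134 over those promoter peaks. The next higher peak, nearest the TSS of Capr, had a signal of 775, and the next lower, nearest that of the ribosomal protein gene RpL32, had 721. Its score was at the cap of 1000 in every thresholded list.

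The peak covered chr2R:19424852-19425152, 301 bp, with its summit 86 bp upstream of the first hts TSS, which serves 10 of the 16 transcripts. The summit lay 103 bp upstream in replicate 1 and 86 bp upstream in replicate 2, 17 bp apart. CalpA, a calpain gene, starts on the other strand only 210 bp away, and the summit lay 124 bp upstream of its TSS, between the 2 starts. A peak in a gap this short cannot be given to hts or CalpA alone.

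The other starts of hts had relaxed calls at most. The TSS of 4 transcripts at position 19424114 had a call of 32.7 in replicate 1, 22.6 in replicate 2 and 46.5 in the ranked list behind the conservative list. The pair of TSSs near position 19411496, with 1 transcript each, shared a call of 10.6 in replicate 1, 30.8 in replicate 2 and 46.4 in the same ranked list. The values of 46.5 and 46.4 are near the median of 45.4 for the strongest promoter call of all genes with one in that ranked list. In the lists of the single replicates the medians were 27.3 in replicate 1 and 22.6 in replicate 2, so the pair's 10.6 in replicate 1 was low. The strong signal of hts therefore sat at 1 of its 4 starts.

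The alpha-Spec promoter peak was of middle strength. Its signal was 86.7 in replicate 1 and 86.8 in replicate 2, a mean of 86.8 ± 0.0725 (SD, n = 2), and 179 in the conservative list. It ranked 783rd of all conservative peaks and 693rd of the 2151 promoter peaks, at 1.34 times their median. The IDR was 0.00631 in replicate 1 and 0.000169 in replicate 2, and 0.00059 in the ranked list behind the conservative list. Although the signals were nearly equal, the peak was less reproducible within replicate 1, where its score of 913 was below the cap.

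The interval was chr3L:1795252-1795651, 400 bp, and its summit lay 124 bp upstream of the alpha-Spec TSS in replicate 2 and in the conservative list, and 160 bp upstream in replicate 1. The gene dlt is annotated from the same start on the same strand. Cdc37, which encodes a kinase co-chaperone, starts on the other strand 64 bp away, and the summit lay 60 bp downstream of that start, inside the 5′ UTR of Cdc37. If each summit was given only to the gene with the nearest TSS, this peak went to Cdc37 and only hts of the 6 members kept a promoter peak, beside 14.5% of all genes. That assignment was added after the data were seen.

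**Figure D1:**
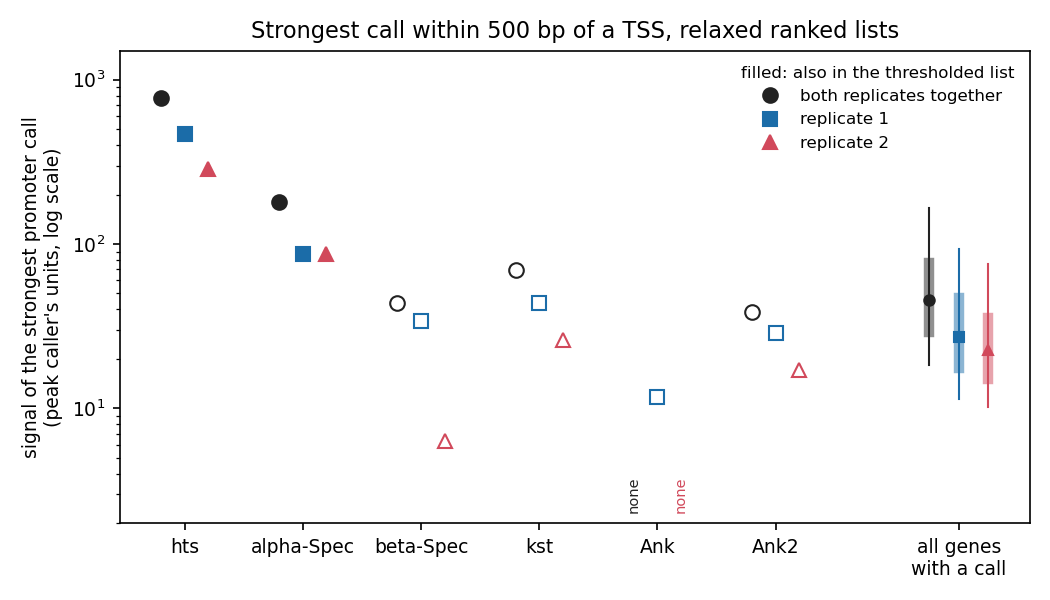
Strongest promoter call of each gene in the relaxed ranked lists, with the signal in the peak caller's units on a log axis; black circles are both replicates together, blue squares replicate 1 and red triangles replicate 2, and filled symbols passed the threshold. At the right, the symbol, thick bar and thin line give the median, the quartiles and the 10th to 90th percentiles of all genes with a call; hts and alpha-Spec lie above the 90th percentile in the combined list and the other members do not.

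The replicate balance of the 2 peaks was not unusual for promoter peaks. The signal in replicate 1 over that in replicate 2 was 1.65 at hts and 0.999 at alpha-Spec. Over the 2142 conservative promoter peaks with a relaxed call in both replicates, the median ratio was 1.27, and the 10th and 90th percentiles were 0.889 and 1.85. Replicate 1 had the higher signal at 1713 of them. Both member peaks were shared by the thresholded lists of the replicates. The conservative list was itself made from both replicates, and the share of its promoter peaks found in both of those lists was not computed.

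The remaining spectrin genes had relaxed promoter calls that did not pass the threshold. For kst, the heavy beta chain, the strongest reached 44.0 in replicate 1, with an IDR of 0.0241, and 26.1 in replicate 2, with 0.847. It reached 69.9 in the ranked list behind the conservative list, where its IDR was 0.0805. In that list 71.9% of the 11817 genes with a relaxed promoter call had a weaker one than kst, against 99.9% for hts and 91.2% for alpha-Spec. Of the 4 members without a promoter peak, kst had the strongest call. Its summit lay 92 bp downstream of the first kst TSS.

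For beta-Spec, the partner chain of alpha-Spec in the common heterodimer, the call reached 34.1 in replicate 1 and 6.35 in replicate 2, and 43.6 in the combined ranked list with an IDR of 0.676. The 2 replicates differed by 5.37 times, more than at any of the other 4 member promoters with a call in both. A weaker call was found for 47.6% of the genes, so the beta-Spec call was near the middle. Of the 2 chains, alpha-Spec had a promoter peak in both replicates and beta-Spec in neither, but the alpha-Spec summit lies nearer to Cdc37, and with summits given to the nearest TSS alone neither chain had one in the conservative list.

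By signal in the combined ranked list, Ank2 had the weakest promoter call of the members with one, and Ank had none; in replicate 2 the beta-Spec call was weaker than that of Ank2. For Ank2 the strongest call in the combined ranked list had a signal of 38.6 with an IDR of 0.344, and it lay 81 bp downstream of the TSS of 3 transcripts, with 20.3 in replicate 1 and 17.0 in replicate 2 at the same TSS. The Ank2 TSS of the most transcripts, 11 of 22, had 26.9 in the combined ranked list, 28.7 in replicate 1 and 9.06 in replicate 2. A weaker call was found for 40.5% of the genes. Ank had no relaxed promoter call in either combined ranked list or in replicate 2, and the strongest of replicate 1 had a signal of 11.7. A relaxed promoter call in the ranked list behind the conservative list was common, present for 5 of the 6 members and for 84.6% of all protein-coding genes. Among the genes with one, 2 of 5 members had a conservative promoter peak, beside 22.9%.

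The peak nearest to Ank lay outside the window. In the second list alone, a peak at chr4:130419-130818 had its summit 770 bp upstream of the first Ank TSS, with a signal of 84.1, rank 2264 of 3369 and an IDR of 0.00374. Replicate 1 had a relaxed call there with a signal of 48.0 and an IDR of 0.0124, and replicate 2 had none. The summit lies in an annotated INE-1 transposable element, a repeat with many copies, and whether its reads were unique to this copy was not tested. Of the member peaks inside the window, the farthest from its TSS was that of alpha-Spec in replicate 1, at 160 bp.

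Both members with a promoter peak had a close divergent neighbour, a gene that starts upstream on the other strand. The gap between the starts was 64 bp for alpha-Spec and Cdc37 and 210 bp for hts and CalpA. It was 442 bp for kst and Drsl6, 554 bp for beta-Spec and the Integrator subunit gene IntS2, 955 bp for Ank2 and the acyl-CoA dehydrogenase gene Mcad, and 2371 bp for Ank and anne. None of Drsl6, IntS2, Mcad and anne had a conservative promoter peak either. The members with the 2 shortest gaps were the 2 with a peak, but hts was picked for its peak. The alpha-Spec peak goes to Cdc37 when each summit is given to the nearest TSS alone. The gaps of the members are therefore given as a description.

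Across all genes, the share with a promoter peak was higher at shorter gaps. With a divergent TSS at most 300 bp upstream, 2 of 2 members had a peak, beside 38.5% of 2563 genes. At 301 to 1000 bp, 0 of 3 members had one, beside 30.7% of 2489 genes, and with none within 1000 bp it was 0 of 1 member, beside 10.8% of 8916 genes. A summit between close starts counts for both genes by construction. By number of starts, 1 of the 2 members with a single TSS had a peak, beside 16.5% of such genes, and so had 1 of the 4 members with several, beside 27.3%.

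**Figure D2:**
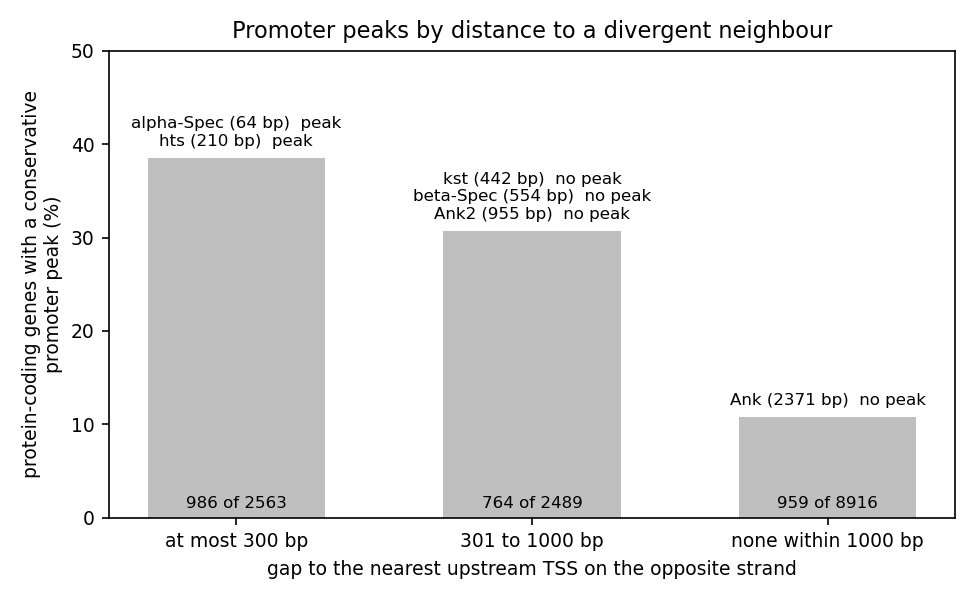
Share of protein-coding genes with a conservative promoter peak, in percent, by the gap in bp to the nearest upstream TSS on the opposite strand; the counts stand in the bars and the members with their gaps above them. The share is 38.5%, 30.7% and 10.8% from the shortest to the longest gap. The 2 members with a peak are the 2 in the first bar, and hts was picked for its peak.

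Inside the gene bodies, only hts held thresholded peaks. In the conservative list 1 of 6 members had a summit inside the gene and over 500 bp from its TSSs, beside 3.11% of all protein-coding genes and 13.3% of those of at least 12000 bp. There were 2 such summits in hts, 9568 and 10227 bp downstream of its first start. Neither falls in an exon of any of the 16 hts transcripts. Each falls instead in a transfer RNA (tRNA) gene that lies in an hts intron on the opposite strand, where RNA polymerase III, not the polymerase of hts, makes the transcript.

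The stronger of the 2 was on tRNA:Ser-CGA-1-4, a serine tRNA gene at chr2R:19414598-19414679. Its signal was 160 in replicate 1 and 115 in replicate 2, a mean of 138 ± 31.2 (SD, n = 2), and 257 in the conservative list. It passed the threshold in both replicates, and their summits were 2 bp apart. Among the 642 conservative peaks away from protein-coding promoters it ranked 30th.

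The weaker was on tRNA:Val-AAC-2-2, a valine tRNA gene at chr2R:19415271-19415343. Its signal was 81.2 in replicate 1, where it passed the threshold, and 32.3 in replicate 2, where it was a relaxed call alone, a mean of 56.7 ± 34.6 (SD, n = 2), and it was 103 in the conservative list. The ratio between the replicates, 2.52, was higher than at 98.7% of the conservative promoter peaks, and was not compared with other tRNA gene peaks. The number of internal hts peaks thus differed between the thresholded lists of the single replicates, with 2 in replicate 1 and 1 in replicate 2. The conservative list and the second list, each made from both replicates, also held 2.

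The remaining tRNA gene of the cluster, tRNA:Val-AAC-2-1, lies between those 2 and had no thresholded summit within 100 bp. Its single relaxed call, in replicate 2, had a signal of 2.82. Whether reads were shared between the 2 valine genes was not tested. By the same 100 bp rule, 2 of the 3 tRNA genes in hts had a conservative summit, beside 41.4% of all 290 tRNA genes. The median signal of the 120 tRNA genes with a summit was 165, with 105 of them weaker than tRNA:Ser-CGA-1-4 and 23 weaker than tRNA:Val-AAC-2-2. Of the 290 tRNA genes, 134 lie inside protein-coding genes, in 72 hosts.

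**Figure D3:**
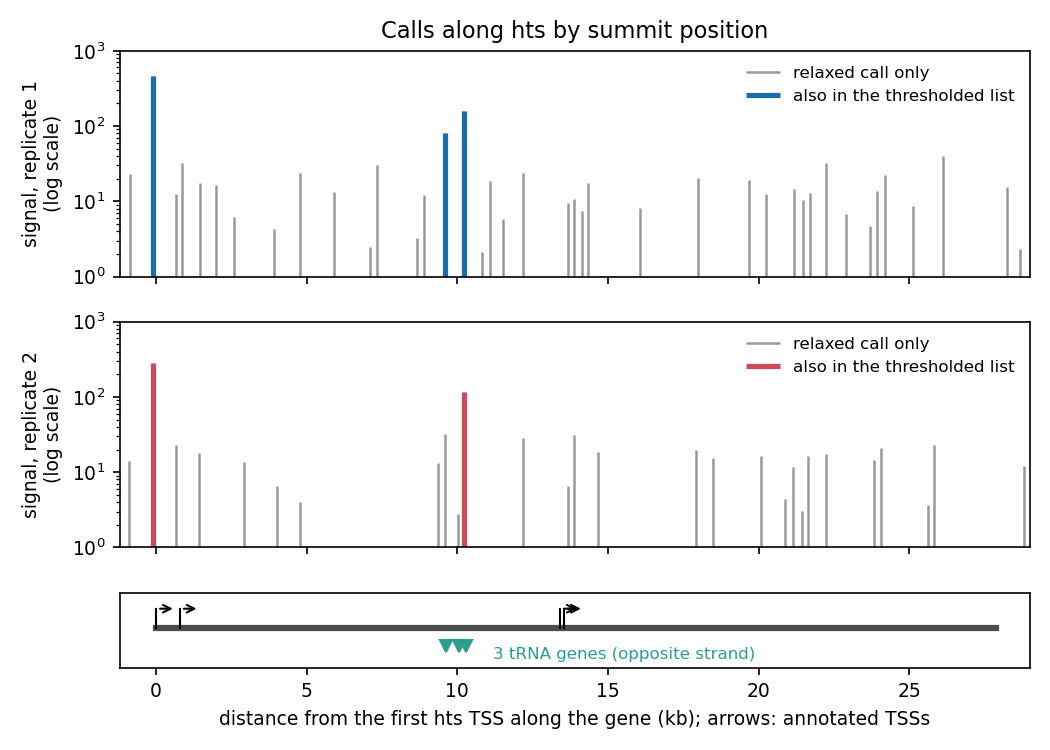
Signals of the calls along hts on a log axis, in the peak caller's units, by distance of the summit from the first hts TSS in kb, with replicate 1 above replicate 2; coloured lines passed the threshold and grey lines are relaxed calls only. The bottom track shows the gene, its 4 TSSs as arrows and the 3 tRNA genes as triangles; the promoter peak is at the start in both replicates, and the other thresholded calls stand at the tRNA genes near 10 kb.

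In both combined ranked lists, the gene bodies carried relaxed calls at densities above the median in alpha-Spec, beta-Spec and kst. Densities there were below it in hts, Ank2 and Ank. The single replicates did not all keep this split. In replicate 1, hts was above the median of 1.221 per kb, at 1.292, and kst was below it, at 1.119. In replicate 2, alpha-Spec was below the median of 1.155, at 1.128. In the ranked list behind the conservative list, alpha-Spec held 1.66 summits per kb, beta-Spec 1.5, kst 1.44, hts 1.00, Ank2 0.682 and Ank 0.541, beside a median of 1.34 for all protein-coding genes. The strongest of these inside alpha-Spec had a signal of 77.7 and a score of 716, in an intron 999 bp downstream of the start, and it was seen at 35.1 in replicate 1 and 31.2 in replicate 2. The strongest was 62.6 in Ank2, 53.7 in kst, 46.7 in Ank and 41.7 in beta-Spec. None passed the threshold.

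Letters of 7 known motifs were searched on both strands within 50 bp of each summit. At the hts promoter peak the full DRE, TATCGATA, stood 9 bp from the summit, and its core, ATCGAT, stood there and once more 35 bp to the other side. The full DRE always contains the core, so these counts overlap. In positions from the TSS, the full DRE of hts began 99 bp upstream. The DRE is the binding motif of DREF, a factor of housekeeping gene promoters, and a match of letters does not show which protein was there.

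The full DRE was found at 22.4% of the 2151 conservative promoter peaks and at 33.0% of the 100 strongest, and the core at 45.6% of the promoter peaks and at 70.0% of the 100 strongest. The same letters read backwards were found at 0.418% of the promoter peaks for the full DRE and 2.84% for the core. At the strongest relaxed promoter call of the 8253 windows outside conservative peaks, the full DRE was found at 1.28% and the core at 5.25%. The DRE of hts is thus a motif found at other promoters with a peak. The share was higher among the 100 strongest, a set that includes hts, which was picked for its signal.

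At the alpha-Spec promoter peak none of the 7 motifs was found within 50 bp of the summit. The 2 cores printed above stood 76 and 86 bp from the summit, on the side of the alpha-Spec start, so that a window of 100 bp counted them and one of 50 bp did not. They began 51 and 41 bp upstream of the alpha-Spec TSS. The M1BP motif, GGTCACAC, stood 144 bp from the summit, on the Cdc37 side, and was found within 50 bp of 3.58% of the conservative promoter peaks. The other motifs searched were GAGAG, found at 8.23% of those peaks, CANNTG at 36.9%, TATAAA at 9.95% and TCAGT at 16.4%, and TCAGT stood 10 bp from the hts summit.

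Among the relaxed calls, those of kst, beta-Spec and Ank2 held no DRE core or M1BP motif within 50 bp. In windows from 250 bp upstream to 50 bp downstream of a TSS, the full DRE was found at 7.98% of the 19276 protein-coding TSSs, the core at 20.8% and the M1BP motif at 6.71%. Of the member TSSs, the first of hts alone held the full DRE. The core was also found at alpha-Spec and at the first TSS of kst, where it began 102 bp upstream, with an M1BP motif 82 bp upstream. The kst promoter thus held the core and the M1BP motif without a promoter peak. No match of these letters was found in the windows of beta-Spec, Ank and Ank2.

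The 2 tRNA peaks inside hts differed from its promoter peak in these letters. Neither held the DRE, its core or the M1BP motif within 50 bp, or within 200 bp, of the summit. Over the 2793 conservative peaks on the main arms, promoter peaks included, the full DRE was found within 50 bp at 18.1%. The core was found at 37.2% and the M1BP motif at 2.86%, so most peaks lacked each of them. No share was computed for peaks away from promoters alone. CANNTG was found 2 times near the summit on tRNA:Val-AAC-2-2, at 9 and 38 bp, and not within 50 bp of that on tRNA:Ser-CGA-1-4. It was common, found within 50 bp at 37.4% of the 2793 peaks, and the same letters read backwards at 23.7%.

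The proteins that work with the membrane skeleton were read from 6 lists of 44 matched genes, chosen with earlier results of these data known. In all, 16 of the 44 had a conservative promoter peak, or 36.4%, beside 19.4% of all protein-coding genes. The count was 19 in the second list, beside 21.4% of all genes, 19 in replicate 1, beside 18.0%, and 9 in replicate 2, beside 13.6%. Leaving out replicate 1 thus lowered it to 9, and the share of all genes was also lowest in replicate 2. No test was made of the difference from all genes.

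Among the membrane partners of spectrin and ankyrin, 4 of 9 had a peak. Nrg, the L1-type adhesion molecule that binds ankyrin, reached 277 in replicate 1 and 180 in replicate 2. Atpalpha, the catalytic subunit of the sodium pump, had 211 in replicate 1 and 175 in replicate 2. The E-cadherin gene shg had 100.2 in replicate 1 and 116 in replicate 2. The fourth, the apical polarity gene crb, had 74.9 in replicate 1 and 31.3 in replicate 2. Nrg, Atpalpha and shg were above alpha-Spec in both replicates, and crb was below it in both.

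Of the FERM domain genes, 3 of 6 had a peak, led by the phosphatase gene Ptpmeg with 232 in replicate 1 and 173 in replicate 2. The septate junction gene cora had 68.1 in replicate 1 and 35.5 in replicate 2, and Moe, which encodes moesin, had 56.3 in replicate 1 and 41.5 in replicate 2. Ptpmeg lay between hts and alpha-Spec in both replicates, and cora and Moe were below alpha-Spec in both replicates.

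Of the actin, myosin and end-capping genes, 4 of 11 had a peak. The gene cpb, whose product like adducin caps actin filament ends, had 131 in replicate 1 and 101 in replicate 2, and zip, the heavy chain of non-muscle myosin, had 125 in replicate 1 and 110 in replicate 2. The tropomyosin gene Tm1 had 92.3 in replicate 1 and 55.7 in replicate 2. The actin regulator gene chic, which encodes profilin and is named after its values were seen, was counted as having no peak although the ranked list behind the conservative list held a promoter call of 246 with a score of 1000.

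Of the polarity scaffold genes, 4 of 7 had a peak, led by the scaffold gene dlg1 with 110 in replicate 1 and 76.7 in replicate 2. The junction gene baz had 84.2 in replicate 1 and 45.4 in replicate 2, and par-6 had 81.3 in replicate 1 and 42.8 in replicate 2. Of the spectraplakin and dystrophin complex, 1 of 7 had a peak, the dystroglycan gene Dg, with 74.8 in replicate 1 and 43.8 in replicate 2. Of the 4 genes for calmodulin and kinases that act on adducin or spectrin, 0 had a promoter peak in the conservative list, 2 in the second list, 2 in replicate 1 and 0 in replicate 2.

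**Figure D4:**
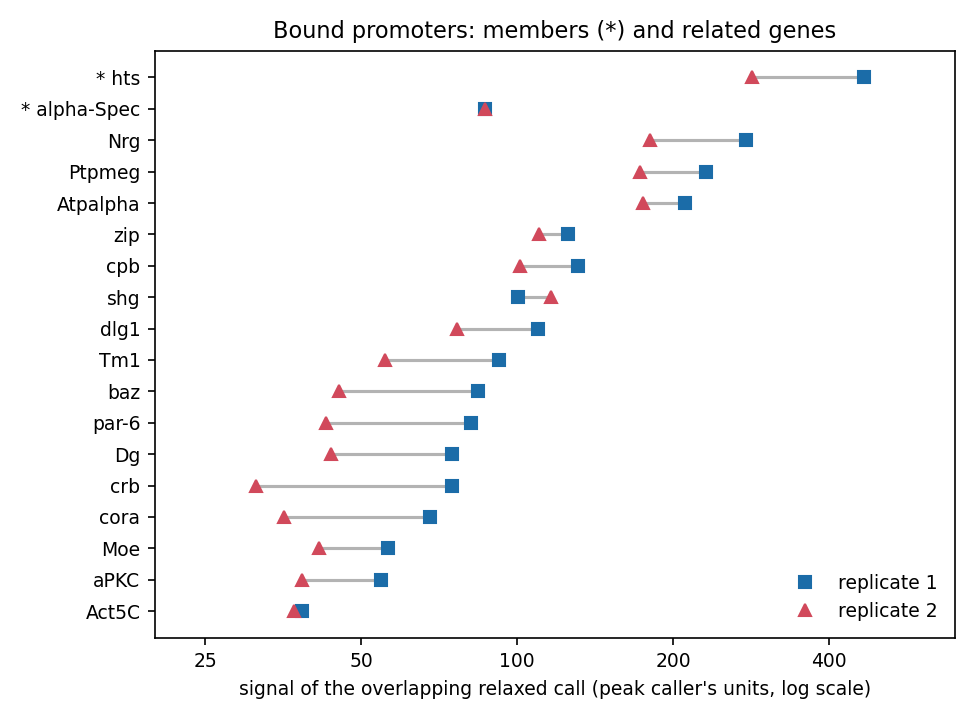
Signal of the call that overlaps each conservative promoter peak, in the peak caller's units on a log axis, in replicate 1 (squares) and replicate 2 (triangles); the 2 members with a peak are starred at the top and the 16 related genes follow by summed signal. The hts peak, for which the family was picked, is at the right, and alpha-Spec has nearly the same signal in both.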

How the data were processed

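ChIP-seq peak lists of 2 biological replicates were analysed. Per the labels, the authors placed peaks on build dm6. Thresholded lists and the relaxed ranked lists behind them were deposited for each replicate and, as 2 pairs, for both replicates together. Per the layout of the deposited files, signal is a value of the peak caller, the deposited score rises as the IDR falls, and the deposited −log10 IDR in the ranked lists ends at 5.0. The aligner, the peak caller and how signal relates to a control were not given in the sources used here. Of the whole-series tables, 16 columns of per-sample values were not used.

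Genes, TSSs and exons came from the Ensembl 115 annotation and bases from the Release 6 assembly. All peaks ended within the arm lengths of that assembly. Peaks were placed by summit, within 500 bp of any TSS or inside the gene. Replicate calls were matched by an overlap of at least 1 bp. Counts and shares were computed in Python 3.11.15 with pandas 2.3.3 and numpy 2.4.6, and placement and motif search were tested on simulated data. With 1 group and no control analysed, no test was made. The members and lists were chosen with earlier results of these data known. In each related list, up to 3 genes with the highest conservative signal were named, besides chic and crb, which were named after their values were seen, and 1 symbol was not matched.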

Additional observations from a re-analysis of the deposited data

How the results depend on the processing

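Of 79 alternatives over all results, 64 left a result as it was or within its margin, and 15 moved it. The results are counts and signals, which have no direction to turn. Many of the 64 read the same hts or alpha-Spec promoter peak again, or recounted peaks inside members that held none. The 64 are therefore not separate checks. Among the 500 strongest peaks alone, 1 member had a promoter peak, namely hts, which was picked for its strong peak. In that set 3 related genes had one and 1 internal hts peak was left. The share of all genes with a promoter peak in that set was not computed. With each summit given to the nearest TSS alone, 1 member had a promoter peak. Leaving out either replicate in turn, the members with a promoter peak numbered 2 to 2, the related genes 9 to 19, and the internal peaks 1 to 2. The hts signal was 284 to 468 and the alpha-Spec signal 86.7 to 86.8, and the cause of the gap to the conservative list was not tested. Counting peaks by interval gave 4 peaks touching the gene bodies, because the promoter peaks of hts and alpha-Spec reach past their TSSs. A DRE core was found at 2 member promoter peaks within 100 bp, against 1 within 50 bp. No paired analysis was possible because both replicates belong to 1 group. The alpha-Spec peak was not among the 500 strongest and has no value there. The depth behind each signal is unknown, so no interval was given.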
